A study of Mus musculus with 6 samples.

Results

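Among the epithelial cells of the mouse tumours, a set of cells with few mitosis transcripts shared transcripts of genes best known from other tissues. These transcripts came from Klk8, a secreted serine protease of skin and brain, Inhba, the subunit from which activin A is made, Nppb, the heart's B-type natriuretic peptide, Aqp3, a water and glycerol channel, Tnnt2, the troponin T of heart muscle, and Acan, the core protein of the cartilage proteoglycan aggrecan. A cell was taken as a member when at least 200 genes were detected in it and under 10% of its unique molecular identifiers (UMIs, each standing for 1 captured transcript) were mitochondrial, when it had at least 1 UMI of Epcam and 0 of Ptprc, when at least 3 of the 6 genes named above had a UMI, and when at most 2 of 5 mitosis genes (Cenpf, Ube2c, Ccnb1, Cdc20 and Top2a) had one. Epcam marks epithelial cells and Ptprc marks blood-derived cells. The rule found 556 members beside 9508 other Epcam-positive, Ptprc-negative cells, and 22244 cells of all kinds passed the limits on genes and mitochondrial UMIs. The members were chosen by the UMI counts of these genes, and the genes were themselves picked from the same libraries, so levels of any gene in members against other cells of their library are given as a description, with no test.

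Activin A signals through serine/threonine kinase receptors of the TGF-beta superfamily and is bound and neutralised by follistatin. Tissue kallikreins such as Klk8 are secreted trypsin- or chymotrypsin-like proteases whose genes lie side by side, and in skin they take part in shedding of the outer layer. Natriuretic peptides, troponin T and aggrecan are products of heart muscle and cartilage, and their transcripts are not typical of mammary epithelium.

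The libraries came from female C3(1)-Tag mice (C3TAG in the labels), an FVB/NJ line whose mammary epithelium carries the SV40 large T antigen under the rat C3(1) promoter, and every group used here carries this transgene. There were 3 states with 2 libraries each: Prepuberty, the whole mammary gland at 5 weeks, DCIS (ductal carcinoma in situ), the whole gland at 14 weeks, and Tumor, a palpable tumour after 18 weeks. The comparison over states asked how the cells change from the gland before puberty, through the lesion held within ducts, to the invasive tumour. The labels number the libraries but do not say that they came from separate animals, so the p-values below measure the spread between these libraries, which may be technical. The labels give an overnight collagenase and hyaluronidase digest and the v2 chemistry for every library, but by the study's methods the tumours were dissociated with another kit and Tumor 2 was made with the v3 chemistry. Neither dissociation nor dissected tissue can be told apart from the state, and the chemistry cannot be told apart from the tumour.

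After the limits on cells, each library held 2606 to 4476 cells with 29652183 to 60741860 UMIs. Epcam-positive, Ptprc-negative cells numbered 1064 and 265 in Prepuberty, 1735 and 1707 in DCIS, and 3547 and 1746 in Tumor. The 297 members of Tumor 1 held 4377860 UMIs and the 235 of Tumor 2 held 4652369, whereas the 19 members of DCIS 1 held 254542. Summed over all pairs of libraries, 279 kept cell barcodes were shared, and 0 of these were members in both libraries of the pair.

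Members were found almost entirely in the tumours, where 532 of the 556 (95.7%) lay. They were 297 of 3547 epithelial cells in Tumor 1, or 8.37% (exact Clopper-Pearson 95% interval 7.48 to 9.33), and 235 of 1746 in Tumor 2, or 13.5% (11.9 to 15.2). DCIS 1 held 19 members, 1.10% of its epithelial cells (0.661 to 1.70), and DCIS 2 held 4, or 0.234% (0.0639 to 0.599). Prepuberty 2 held 1 member, 0.377% (0.00955 to 2.08), and Prepuberty 1 held 0 of 1064, for which the interval reached 0.346%. Intervals cover counting error only. Both Tumor libraries lay above every library of the other states.

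The mean share was 10.9% ± 3.60 (SD, n = 2) in Tumor, 0.665% ± 0.609 in DCIS and 0.189% ± 0.267 in Prepuberty. Tumor exceeded DCIS by 10.3 percentage points and Prepuberty by 10.7 points (two-sided exact permutation test, p = 0.3333 for each, the smallest p that 2 libraries against 2 allow). DCIS exceeded Prepuberty by 0.476 points (exact p = 0.667), a difference of the order of the spread within each state that was 0.04565 points without DCIS 1. Of the 3 comparisons none could reach 0.05. Counted over the epithelial cells that were not cycling, members made up 21.7% in Tumor 1, 29.1% in Tumor 2, 1.65% in DCIS 1 and 0.296% in DCIS 2.

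**Figure D1:**
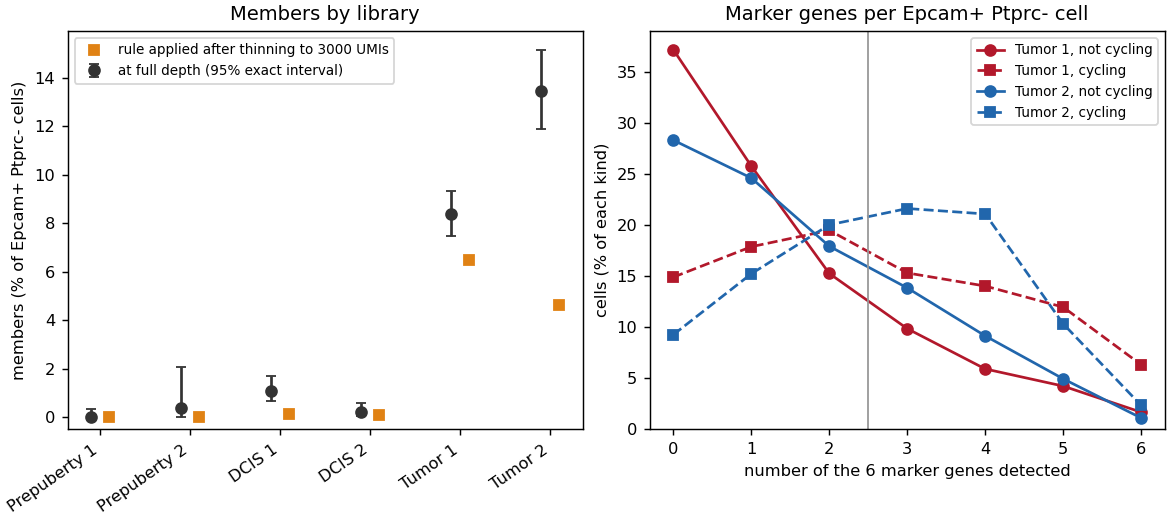
Left, share of Epcam-positive, Ptprc-negative cells that were members in each of the 6 libraries, in percent, with exact 95% intervals at full depth and the share after every cell was thinned to 3000 UMIs. Right, percent of epithelial cells by how many of the 6 marker genes had a UMI, for cycling and not cycling cells of both Tumor libraries, with a line at the limit of 3. The Tumor libraries sit at 8.37% and 13.5%, the other 4 at 1.10% or below, and in the right panel the cells that were not cycling fall without a gap across the limit, whereas cycling cells of Tumor 2 go from 188 at 2 markers to 203 at 3.

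The members are a range of cells cut at a limit, with no gap beside it. In Tumor 1, 209 cells that were not cycling had exactly 2 of the 6 markers and lay just outside, whereas 135 members (45.5%) had exactly 3. In Tumor 2 the corresponding numbers were 145 cells just outside and 112 members (47.7%) at 3. All 6 markers were found together in 23 cells of Tumor 1 and 9 of Tumor 2. On the limit for mitosis genes, 146 and 99 members had exactly 2 of the 5, and 159 and 82 cells with 3 or more markers had exactly 3 and were left out. Epcam itself was seldom near its limit, with a median of 23 and 30 UMIs in a member, although 23 members of Tumor 2 (9.79%) and 4 of Tumor 1 (1.35%) had a single UMI of it.

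A rule that needs 3 genes to be seen takes deeper cells more easily. The median member had 13360 UMIs in Tumor 1 and 18040 in Tumor 2, against 6781 and 8919 in other epithelial cells that were not cycling. Cells at 3 markers had a median of 10987 and 15469.5 UMIs, and cells at 2 markers had 9726 and 11516. When every cell was thinned to 3000 UMIs and shallower cells were left out, the rule took 206 of 3184 epithelial cells in Tumor 1 (6.47%) and 69 of 1493 in Tumor 2 (4.62%), against 0.143% and 0.0729% in DCIS 1 and 2. The Tumor libraries stayed above DCIS at equal depth, but Tumor 2 went from the higher share to the lower, so no order between the tumours can be read from the share. Of the members at full depth, 83 of 295 in Tumor 1 (28.1%) and 39 of 235 in Tumor 2 (16.6%) were still members at 3000 UMIs.

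Doublets, droplets holding more than 1 cell, were scored in each library. Of the members, 11 in Tumor 1 (3.70%) and 5 in Tumor 2 (2.13%) were among the top-scored cells, against 4.37% and 2.12% of the other epithelial cells. The share of likely doublets among Tumor members was thus close to that of their neighbours. In DCIS 2, 3 of the 4 members were among the top-scored cells, and DCIS 2 members are not read further.

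The 6 marker genes that chose the cells differed in level between members and between tumours. Levels are given in CPM, the UMIs of a gene scaled to an equal total of UMIs in the summed cells of each group. Inhba stood highest in Tumor 1, at 757 CPM in members against 127 in other cells that were not cycling, and reached 287 against 71.7 in Tumor 2. It was also the marker found in most members, with a UMI in 88.6% and 85.5%. Nppb was mostly a transcript of Tumor 1, with 195 CPM in members and a UMI in 53.5% of them, and in Tumor 2 it was at 19.8 CPM with a UMI in 13.2%. In Tumor 2, 60.9% of the members' Nppb UMIs came from 5 cells.

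Aqp3 had the opposite order between tumours, at 119 CPM in members of Tumor 1 and 172 in those of Tumor 2. Klk8 stood at 130 and 97.2 CPM, Tnnt2 at 120 and 91.8, and Acan at 183 and 202. In other epithelial cells that were not cycling, Klk8 was at 16.1 and 9.63 CPM, Tnnt2 at 35.2 and 28.4, Acan at 37.2 and 64.7, and Aqp3 at 9.67 and 33.5. Nppb was at 6.20 CPM in those cells of Tumor 1 and had 1 UMI in all of those of Tumor 2. Summed over all epithelial cells of a library, Acan was at 0 CPM in both Prepuberty libraries and in DCIS 2, at 1.00 in DCIS 1, and at 99.1 and 121 in the tumours. Tnnt2 read 1.15 and 3.47 CPM in Prepuberty, 14.2 and 9.02 in DCIS, and 80.2 and 73.4 in Tumor.

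Thinned to 3000 UMIs, members could be set beside Ptprc-positive cells. These are no plain background for Inhba, which had a UMI in 17.9% of the thinned Ptprc-positive cells of Prepuberty 1, 12.7% of those of DCIS 1 and 15.3% of those of DCIS 2. Inhba had a UMI in 60.3% of the thinned members of Tumor 1 (95% interval 54.5 to 66.0) and in 13.6% of other epithelial cells that were not cycling, against 2.65% of the Ptprc-positive cells of the same library. In Tumor 2 the shares were 45.1% (38.6 to 51.7), 11.9% and 2.04%. Ptprc-positive cells had shallower libraries, with median depths of 3736 and 4239 UMIs. Klk8 was the marker with most background, with a UMI in 25.1% of thinned members of Tumor 1 and 14.9% of those of Tumor 2, but in 5.96% and 5.44% of Ptprc-positive cells. Klk8 shares of 5.02% and 1.39% in other epithelial cells that were not cycling were at or below that level and are read as background. Acan stood in 37.3% and 41.7% of thinned members, in 6.92% and 14.1% of the other cells that were not cycling, and in 0.662% and 2.04% of Ptprc-positive cells.

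**Figure D2:**
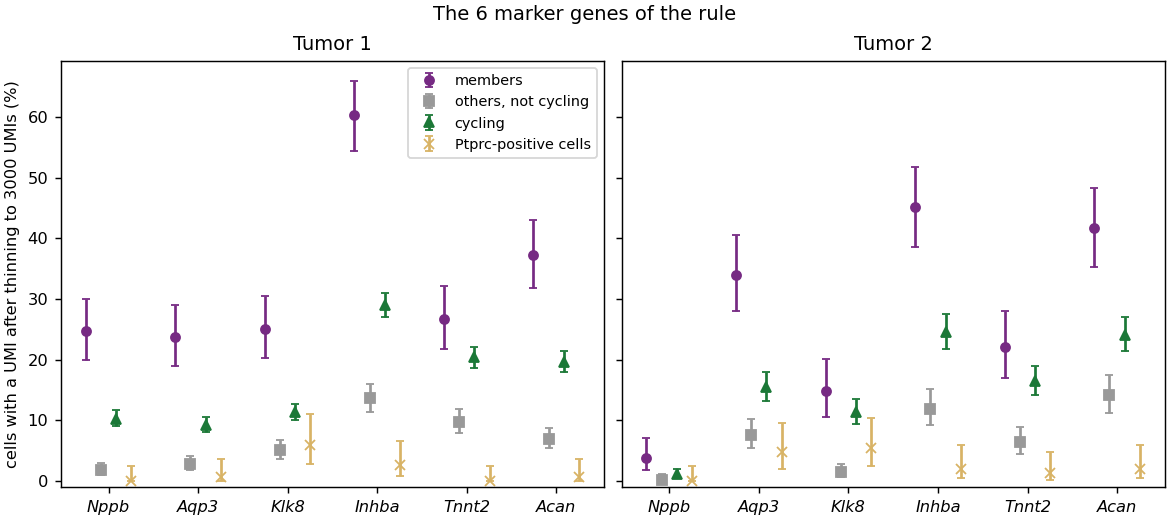
Percent of cells with a UMI of each of the 6 marker genes after thinning to 3000 UMIs, in members, other epithelial cells that were not cycling, cycling epithelial cells and Ptprc-positive cells, for Tumor 1 and Tumor 2, with exact 95% intervals. Members were chosen by these genes, so their values are a description. Inhba is highest in both tumours (60.3% and 45.1% of members), and Nppb is at 24.7% in Tumor 1 and 3.83% in Tumor 2.

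The markers came in many combinations. Members of Tumor 1 showed 40 distinct sets of markers and those of Tumor 2 showed 28. The commonest set in Tumor 1 was Nppb, Klk8, Inhba, Tnnt2 and Acan without Aqp3, in 27 members (9.1%), followed by Inhba, Tnnt2 and Acan in 24. In Tumor 2 it was Inhba, Tnnt2 and Acan, in 29 members (12.3%), followed by Aqp3, Klk8, Inhba, Tnnt2 and Acan in 27. Nppb was thus part of the leading set of Tumor 1 and of neither leading set of Tumor 2.

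How often pairs of markers shared a cell was counted at equal depth over all epithelial cells that were not cycling, members or not. In Tumor 1 the number of cells with both genes of a pair was between 1.06 and 2.54 times the number given by the product of the 2 shares, over 1191 cells. The highest was Nppb with Aqp3, seen in 18 cells against 7.10, and the lowest was Aqp3 with Tnnt2, in 14 cells against 13.2. In Tumor 2, over 738 cells, Aqp3 with Klk8 stood at 2.83 (19 cells against 6.72), and Klk8 with Acan and Tnnt2 with Acan stood at 0.94. The markers were therefore not found together to the same degree: with Acan in Tumor 2, Klk8 and Tnnt2 were near the product and Aqp3 was above it, in 41 cells against 27.0. Nppb had a UMI in 10 of these cells in Tumor 2, too few for its pairs to be read.

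Genes outside the rule also bear on the epithelial name. Krt8 and Krt18, the keratin pair of simple epithelium, had a UMI in 98.7% and 99.3% of members of Tumor 1 and in 82.1% and 87.2% of those of Tumor 2. Cdh1, the gene of E-cadherin, had one in 57.2% and 68.5%, and Krt14, a keratin of basal cells, in 78.5% and 98.7%. These are shares at full depth. Cells with neither Epcam nor Ptprc and fewer than 3 markers were shallower, with medians of 3907 and 7816 UMIs against 13360 and 18040 in members. In those cells Krt8 had a UMI in 19.9% and 22.1%, Krt18 in 27.5% and 24.9%, Cdh1 in 3.46% and 2.58% and Krt14 in 9.84% and 47.4%. The median member had 0 UMIs per 10000 of the endothelial, T cell, B cell and pericyte lists in both tumours, and 0.61 or less of the fibroblast, macrophage and Schwann cell lists.

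Several genes that define heart, skeletal muscle and cartilage were near 0 in members. Actc1, Myh7 and Tnnt3 were at 0 CPM in both tumours, and Ckm, the muscle creatine kinase, was at 0.457 and 0.215. Nppa, the atrial partner of Nppb, was at 0.457 and 0 CPM. Of the cartilage genes, Matn1 was at 0 in both, Col2a1 at 3.20 and 3.87 CPM, Comp at 4.11 and 1.505, and Hapln1 at 0 and 5.80. Tnnt2 and Acan were thus present without these genes at comparable levels, although other genes of the cartilage list, such as Sox9, were well above 10 CPM.

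The T antigen was not used by the rule and was present in members. It had a UMI in 71.0% of members of Tumor 1 and 50.2% of those of Tumor 2, at 245 and 49.9 CPM. After thinning, the share in Tumor 1 was 42.0% (95% interval 36.3 to 47.9), above the 30.9% (27.9 to 34.1) of other epithelial cells that were not cycling and near the 44.2% of cycling cells. In Tumor 2 it was 14.0% (9.87 to 19.2) against 17.1% (13.9 to 20.7) and 19.1%, and the intervals of the first 2 overlapped. Ptprc-positive cells gave 4.64% and 1.36%, so the share in members was above background in both tumours. Of the 19 members of DCIS 1, 7 had a UMI of the T antigen at full depth and 3 (15.8%) after thinning, against 6.68% of other cells that were not cycling.

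Cdkn2a, the gene of p16 and p19, was at 1527 CPM in members against 1348 in all other epithelial cells of Tumor 1, and at 2258 against 1802 in Tumor 2. Mki67, a gene of dividing cells, was at 19.9 against 80.9 CPM in Tumor 1 and 62.1 against 271 in Tumor 2, on the side that the limit on mitosis genes sets.

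Against all other epithelial cells of the library, members of Tumor 1 were at least 2-fold higher in 64 of the 7581 genes with a mean of 10 CPM or more over both groups (0.844%) and at most 0.5-fold in 150 (1.98%). In Tumor 2 they were higher in 30 of 8549 (0.351%) and lower in 155 (1.81%). Both libraries together had 10 genes higher (0.139% of 7197) and 84 lower (1.17%). With cells that had a T-antigen UMI alone, 58 and 26 genes were higher in Tumor 1 and Tumor 2, and 0 in both, while 80 were lower in both. Outside the genes of the rule, 8 of the 45 genes higher in Tumor 1 that passed the level limit in both libraries were also higher in Tumor 2, which is 17.8% of Tumor 1's genes and 40% of the 20 of Tumor 2. Of the genes lower by the same measure, 79 of 117 and 124 were shared, and 0 genes were called in opposite directions. Fold changes are ratios of (CPM + 1), which understate the change of low genes.

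Outside the rule, the gene ranked first by its smaller difference over the tumours was Krt16, a keratin induced in wounded and overgrowing epidermis (chromosome 11, 100246091 to 100248902, GRCm38). It was at 63.7 CPM in members and 20.7 in other epithelial cells of Tumor 1, and at 48.4 and 17.9 in Tumor 2. On the log2 scale the differences were 1.58 and 1.39, and the ratio of UMIs was 3.08 (95% counting interval 2.69 to 3.52) and 2.71 (2.31 to 3.17). A UMI of Krt16 was found in 27.9% and 20% of members and in 13.4% and 9.66% of the others. In Tumor 2, 51.1% of the members' Krt16 UMIs came from 5 cells, and without them the difference was 0.43.

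The genes ranked next included some that code for secreted or membrane-bound signals. Clcf1, a cytokine of the interleukin-6 family, was at 53.7 CPM in members against 24.2 in Tumor 1 and 28.8 against 13.8 in Tumor 2 (log2 1.12 and 1.01). Pthlh, parathyroid hormone-related protein (chromosome 6, 147252101 to 147264183), was at 469 against 248 CPM in Tumor 1 and 33.5 against 17.2 in Tumor 2 (log2 0.92 in each). Pthlh was thus far lower in Tumor 2 in both groups of cells. Without the 5 members richest in each gene, Pthlh differed by 0.51 and 0.25 and Clcf1 by 0.83 and 0.36. Jag1, a Notch ligand (chromosome 2, 137081456 to 137116644), was at 56.4 against 27.8 and 34.0 against 17.2 CPM (log2 0.99 and 0.94). Edn2, an endothelin, was at 18.0 against 6.68 and 18.7 against 4.19 CPM, and Npy, neuropeptide Y, at 74.9 against 33.1 and 158 against 70.05 CPM.

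Several of these genes rested on few cells. S100a8, a calcium-binding protein of neutrophils and stressed keratinocytes, had the widest difference in Tumor 1 among the genes ranked over both tumours (76.5 against 9.76 CPM, log2 2.85), but 84.5% of its UMIs lay in 5 of the 33 members that had any, 180 of them in 1 cell, and without the 5 the difference was 0.29. In Tumor 2 it was at 59.5 against 22.2 CPM (log2 1.38), and at 0.18 without 5 cells. Npy went from 1.16 to -0.36 in Tumor 1 without 5 cells and from 1.17 to 0.60 in Tumor 2, where 48.9% of members had a UMI of it, and Gjb2, the gap junction protein connexin 26, from 1.13 to -0.57 there and from 0.95 to -0.10 in Tumor 2. Edn2 went to 0.15 and 0.71. Except for Npy in Tumor 2, the differences of these 4 genes thus rested in large part on a few members.

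Other leading genes were spread over more members. Slc2a1, the glucose transporter GLUT1 (chromosome 4, 119108711 to 119137983), was at 264 against 128 CPM in Tumor 1 and 58.0 against 27.4 in Tumor 2 (log2 1.04 and 1.06), with a UMI in 75.8% and 43.4% of members. Hmga2, a chromatin protein of embryonic tissue and many tumours (chromosome 10, 120361275 to 120476469), was at 118 against 63.1 and 70.3 against 31.5 CPM (log2 0.89 and 1.14), in 48.5% and 37.9% of members against 26.3% and 21.0% of the others. Tnfrsf9, the costimulatory receptor 4-1BB of T cells (chromosome 4, 150914562 to 150946102), was at 23.8 against 9.82 and 94.6 against 38.7 CPM (log2 1.19 and 1.27), in 17.8% and 43.4% of members. Without the 5 members richest in each gene, these 3 differences were 0.86 and 0.65 for Slc2a1, 0.57 and 0.64 for Hmga2, and 0.79 and 0.97 for Tnfrsf9. They kept their direction in both tumours without those cells.

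Of the remaining leading genes, Adam8 and Adssl1 had smaller levels, and Ung differed little from others that were not cycling. Adam8, a membrane metalloprotease, was at 14.4 against 6.70 and 20.4 against 8.52 CPM, and Adssl1, an enzyme of AMP synthesis, at 19.2 against 8.89 and 16.6 against 7.07 CPM. Oaf was at 97.1 against 49.8 and 102 against 48.8 CPM. Ung, the DNA repair enzyme uracil-DNA glycosylase, was at 65.8 against 33.4 and 115 against 49.7 CPM, but against other cells that were not cycling, at 63.7 and 87.7 CPM, its differences were 0.045 and 0.38. Ung therefore set members apart from the mitotic cells among their neighbours and much less from the rest.

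**Figure D3:**
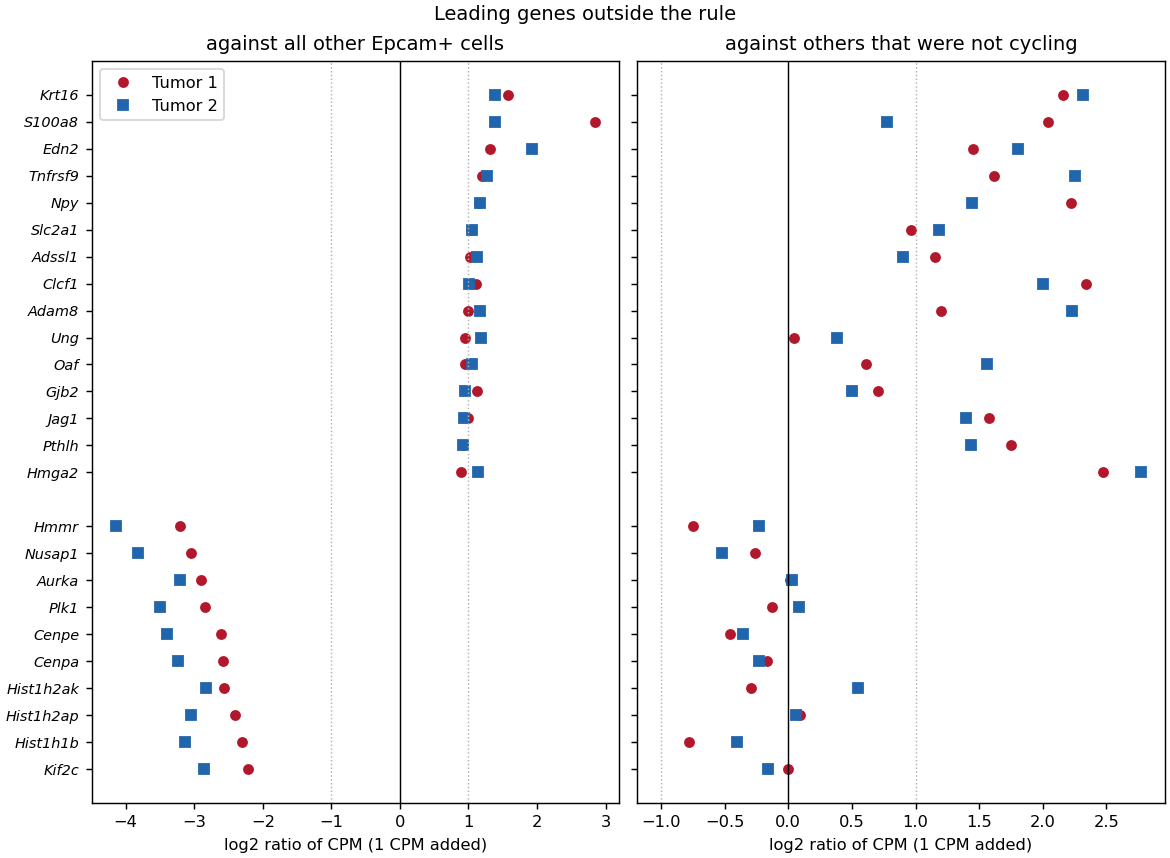
Log2 ratio of (CPM + 1) in members over all other epithelial cells and over other epithelial cells that were not cycling, for the 15 highest and 10 lowest genes outside the rule, in Tumor 1 and Tumor 2. The higher genes run from 0.89 upwards against all others, Hmga2 and Krt16 move further out against cells that were not cycling, and the 10 lower genes move from -2.21 or lower to between -0.78 and 0.55.

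The 10 lowest genes belong to mitosis and histones and follow from the limit on mitosis genes. Hmmr was at 5.48 CPM in members against 58.8 in the others of Tumor 1 and 9.46 against 184 in Tumor 2, and Nusap1, Aurka, Plk1, Cenpe, Cenpa, Kif2c, Hist1h1b, Hist1h2ak and Hist1h2ap had log2 differences between -2.21 and -3.83. Against other cells that were not cycling, the 10 genes lay between -0.78 and 0.55. Cycling cells made up 61.4% of epithelial cells in Tumor 1 and 53.7% in Tumor 2, so the comparison with all others is in large part one with cycling cells. The comparison with the 1071 and 573 other epithelial cells that were not cycling is therefore given as well for most of the genes and lists described next.

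Against those cells, members were at least 2-fold higher in 158 of 7671 genes in Tumor 1 (2.06%) and 90 of 8596 in Tumor 2 (1.05%), and in 37 in both (0.512% of 7222), 32 of them outside the rule. They were lower in 293 (3.82%), 140 (1.63%) and 44 in both (0.609%). The genes named in this and the next 2 paragraphs for this comparison were chosen after their values were seen. Hmga2 led the list, at 118 CPM in members against 20.5 in Tumor 1 and 70.3 against 9.45 in Tumor 2 (log2 2.47 and 2.77). Krt16 followed (2.16 and 2.32), then Clcf1 (2.34 and 2.01) and Wnt10a, a Wnt ligand of skin appendages, at 130 against 19.96 and 58.0 against 18.0 CPM (2.64 and 1.63). Hmga1b, of the same protein family as Hmga2, was at 35.2 against 9.92 and 20.9 against 6.599 CPM.

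Other genes among the first 25 have differing roles. Ccnd1, cyclin D1, was at 185 against 66.3 CPM in Tumor 1 and 173 against 60.6 in Tumor 2 (log2 1.46 and 1.501). Tgfa, a ligand of the EGF receptor, was at 39.7 against 14.8 and 36.1 against 15.2 CPM, and Slc16a3, an exporter of lactate, at 166 against 72.6 and 130 against 55.3 CPM. Upp1, uridine phosphorylase, was at 53.5 against 16.98 and 47.1 against 7.67 CPM. Crabp2, a retinoic acid carrier, was at 284 against 116 and 587 against 265 CPM, and Ecm1, a secreted matrix protein of skin, at 177 against 79.1 and 613 against 256 CPM.

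Several genes lower in members in this comparison are known from milk-secreting cells and their precursors: Wfdc18 at 228 against 1038 CPM in Tumor 1 and 732 against 2760 in Tumor 2, Elf5, a transcription factor of alveolar cells, at 5.71 against 25.8 and 4.94 against 17.7 CPM, and Ltf, lactoferrin, at 7.31 against 24.2 and 9.24 against 305 CPM. Prlr, the prolactin receptor and a gene of the hormone-sensing list, was at 15.3 against 39.9 and 19.1 against 198 CPM. Others are collagens of fibroblasts: Col1a1 at 42.5 against 922 and 17.2 against 110 CPM, Col3a1 at 55.1 against 807 and 48.4 against 226 CPM. Ptn, the growth factor pleiotrophin, was at 14.6 against 77.9 and 115 against 580 CPM, and the imprinted noncoding RNA Meg3 at 13.9 against 218 and 0.215 against 21.8 CPM.

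Fibroblast and macrophage transcripts moved with this comparison. Cells with 3 or more of 6 fibroblast or 3 or more of 7 macrophage markers were 117 of the other cells that were not cycling in Tumor 1 (10.9%) and 22 of the members (7.41%), and in Tumor 2 they were 27 (4.71%) and 17 (7.23%). With those cells removed from both sides, 30 and 31 of the 32 higher genes were still at least 2-fold higher in Tumor 1 and Tumor 2, 29 of them in both. Of the 44 lower genes 33 and 32 were still lower, 28 of them in both. The choice to remove these cells was made after the data were seen.

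Within the kallikreins, Klk7 and Klk6, which lie on the same side of Klk8 on chromosome 7, were also higher in members. Klk8 (43797577 to 43803826), Klk7 (43811294 to 43816359) and Klk6 (43824499 to 43832030) follow each other on the forward strand. Klk7, which cuts proteins of the outer skin, was at 32.7 CPM in members against 14.6 in all others and 5.08 in others that were not cycling in Tumor 1. In Tumor 2 it was at 15.05 and 4.88 CPM, and others that were not cycling had 0 UMIs. Klk6 was at 355, 243 and 139 CPM in Tumor 1 and at 85.5, 61.0 and 19.8 in Tumor 2. In Tumor 2, 41.0% of the members' Klk6 UMIs lay in 5 cells, and without them the difference from all others was -0.24.

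Further along the cluster the differences from others that were not cycling were smaller than for Klk6 and Klk7. Klk5, next to Klk6, was at 5.48 CPM in members of Tumor 1, against 6.20 in all others and 4.83 in others that were not cycling. In Tumor 2 it was at 0 CPM in members against 1.37 and 0.178. Klk10 was at 406 CPM in members and 312 in all others of Tumor 1, and at 39.8 and 64.1 in Tumor 2 (log2 0.38 and -0.67). Others that were not cycling had 244 and 29.4 CPM of Klk10, which put members higher in both tumours (log2 0.73 and 0.42). Klk9, the neighbour of Klk8 on its other side, was at 2.97 CPM in members against 2.66 in all others of Tumor 1 and 0.215 against 0.412 in Tumor 2, where others that were not cycling had 1.86 and 0.178, and Klk12, Klk4 and Klk1 were at 0. Of the 11 kallikreins outside the rule, 6 passed the level limit against all others in Tumor 1 with a median log2 of 0.44 and 1 past 2-fold, and 3 in Tumor 2 with a median of -0.28 and 0 past it, beside 0.844% and 0.351% of all genes. With others that were not cycling as the comparison, 5 and 3 passed, with medians of 0.73 and 0.42, 2 and 1 of them past 2-fold higher, beside 2.06% and 1.05% of all genes. Klk7 in Tumor 2 (log2 1.45 against all others) fell just under the level limit. Over all genes outside the rule the medians against all others were -0.04 and -0.02.

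Few other genes of the pathway of Inhba passed 2-fold. Of 23 other genes of activin and TGF-beta ligands, inhibitors and receptors, 18 passed the level limit against others that were not cycling in Tumor 1 and 17 in Tumor 2, with medians of -0.15 and 0.07, 0 and 1 of them at least 2-fold higher and 2 and 0 lower, where 2.06% and 1.05% of all genes were higher and 3.82% and 1.63% lower. Without cells that had fibroblast or macrophage markers the medians were 0.12 and 0.23, with 1 gene higher and 0 lower in each tumour. Fst, the gene of follistatin, differed on the log2 scale by 0.05 and -0.33 from all others and by 0.23 and 0.00 from others that were not cycling. Inhbb, the other activin subunit, differed by -0.10 and -0.45 from the former and by -0.34 and -0.83 from the latter. Tgfb1 was at 125 CPM in Tumor 1, against 80.4 in all others and 83.1 in others that were not cycling, and at 55.5 against 43.1 and 44.9 in Tumor 2. Tgfbi, a matrix protein induced by TGF-beta, differed by 0.63 and 0.81 from all others and by 0.22 and 1.19 from those not cycling. Bambi, a decoy receptor, differed by -0.48 and 0.14 from all others and by -0.61 and -0.42 from those not cycling.

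The families of the other markers had few measured genes beside the marker itself. Of the 7 other genes of the natriuretic system, 2 passed the level limit in Tumor 1 and 1 in Tumor 2, among them the receptor Npr1, at 9.37 CPM in members against 13.5 in Tumor 1. Against all others the cartilage list had medians of -0.28 and 0.16 over 8 genes in each tumour, with Col9a2 at -1.93 and -0.55, Col9a3 at -0.92 and -0.17, and Col11a1 at -1.10 and 0.42. Against others that were not cycling the medians were -0.37 and -0.17, with 1 and 0 of 8 genes past 2-fold higher and 3 and 1 lower, where 2.06% and 1.05% of all genes were higher and 3.82% and 1.63% lower. Of the 7 genes measured in both tumours 4 were lower in both and 3 higher in both, as were 31.6% and 31.8% of all genes. Sox9, the master regulator of cartilage that mammary epithelium also uses, was at 241 against 199 CPM in all others and 156 in others that were not cycling in Tumor 1, and at 237 against 215 and 233 in Tumor 2. Sox5 was at 88.2 against 53.8 and 29.8, and at 23.0 against 14.9 and 19.6. Of the 23 other muscle genes, 4 passed the limit, all tropomyosins found in many cell types, with medians of 0.24 and 0.17 against all others and 0.23 and 0.34 against those not cycling. Tpm2 was at 451 CPM against 330 and 312 in Tumor 1 and at 412 against 311 and 304 in Tumor 2. Aqp5, an aquaporin of glands, was lower in members, at 20.1 against 32.7 CPM in all others of Tumor 1 and 23.6 against 29.3 in Tumor 2. Both measured aquaporins outside the rule, Aqp5 and Aqp1, were lower in both tumours against others that were not cycling, with medians of -1.09 and -1.06, and of -1.49 and -0.17 without cells that had fibroblast or macrophage markers.

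Keratins separated the tumours as well as the cells. Krt8, Krt18 and Krt19, keratins of luminal cells, were higher in members than in other cells that were not cycling in Tumor 1 and lower in Tumor 2: Krt8 was at 1678 against 868 CPM and 350 against 559, Krt18 at 2700 against 1818 and 388 against 773, and Krt19 at 430 against 223 and 70.7 against 337. Ehf, an epithelial transcription factor, was lower in both (log2 -1.64 and -0.95). Over the luminal keratin and junction list, 7 of the 13 genes measured in both tumours had opposite signs, 6 were lower in both and 0 higher in both, where 36.6% of all genes had opposite signs, 31.6% were lower in both and 31.8% higher in both. The medians were 0.05 and -0.72. Krt14, the basal keratin, was higher in both, at 659 against 444 and 2921 against 1546 CPM.

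Squamous genes were higher in part. Krt17, a keratin of hair follicles and wounded skin, was at 1208 CPM in members against 829 in others that were not cycling in Tumor 1 and 510 against 256 in Tumor 2. Sfn, the 14-3-3 sigma of keratinocytes, was at 400 against 173 and 255 against 145. Krt6a, the partner of Krt16, was at 3.65 against 0.248 CPM in Tumor 1 and 301 against 57.4 in Tumor 2. Sbsn, a late product of the epidermis, differed by 1.43 in Tumor 1 and -0.27 in Tumor 2, and Ivl, involucrin, was at 0 CPM in members of both. Of the list's 29 genes, 11 and 16 passed the limit against others that were not cycling, with medians of 0.70 and 0.24, 4 and 2 of them past 2-fold higher and 0 and 1 lower, beside 2.06% and 1.05% of all genes higher and 3.82% and 1.63% lower.

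The secretory luminal progenitor genes stood far lower in members of both tumours. Against others that were not cycling, 9 of 11 measured genes were at most 0.5-fold in Tumor 1 and 10 of 14 in Tumor 2, with medians of -1.42 and -1.59, and 0 and 1 were at least 2-fold higher. Of all genes 3.82% and 1.63% were lower by this measure. Kit, the receptor that marks these progenitors, was at 5.71 against 30.7 CPM in Tumor 1 and 48.6 against 117 in Tumor 2. Trf, transferrin, was at 251 against 675 and 138 against 235. Spp1, osteopontin, went against its list, at 8340 against 6958 CPM and 4136 against 1496. Without cells that had fibroblast or macrophage markers the medians were -1.41 and -1.62.

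The hormone-sensing list also stood low in Tumor 2, with 4 of 8 genes lower, where 1.63% of all genes were, and a median of -1.47. In Tumor 1 the median over 5 genes was 0.21. Without cells that had fibroblast or macrophage markers the medians were -0.07 in Tumor 1 and -1.08 in Tumor 2. Areg, the EGF-family ligand downstream of estrogen, was at 621 against 288 CPM in members and others that were not cycling of Tumor 1 and 115 against 121 in Tumor 2. In the myoepithelial list few genes could be measured, and Acta2, smooth muscle actin, was at 2.97 against 108 CPM in Tumor 1 and 1.93 against 2.14 in Tumor 2. Tagln, another smooth muscle gene, was at 16.4 against 104 and 5.80 against 24.6. Krt14, a gene of the same list, was higher in both tumours, as given above. Without the cells that had fibroblast or macrophage markers, the median of the myoepithelial list in Tumor 1 went from -2.59 over 3 genes to 0.61 over the 2 that still passed the level limit. In Tumor 2 the median was 0.29 over 4 genes and 0.31 without those cells. Of the 4 genes 1 was past 2-fold higher and 1 lower, where 1.05% and 1.63% of all genes were.

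Laminin and integrin genes stood higher in members in both tumours. Laminins anchor epithelium to its basement membrane. Against others that were not cycling, the laminin chain Lama3 was at 62.1 against 7.07 CPM in Tumor 1 and 43.4 against 15.5 in Tumor 2. In Tumor 1, 5 cells held 44.5% of the members' Lama3 UMIs, and without them the level was 35.7 CPM. The chain Lamb3 was at 125 against 27.5 and 136 against 83.8. Itga2, an integrin that binds collagen and laminin, was at 65.8 against 10.3 and 33.1 against 16.1 CPM. Of the 15 genes measured in both tumours 13 were higher in both, 2 were lower in both and 0 differed in sign. Over all genes outside the rule 31.8% were higher in both and 31.6% lower in both, and 2.06% and 1.05% of all genes tested were past 2-fold higher in Tumor 1 and Tumor 2. The medians were 0.86 and 0.70, with 7 and 4 genes past 2-fold, and 0.91 and 0.73 without the cells that had fibroblast or macrophage markers.

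Proteases and their inhibitors were mixed. Plaur, the urokinase receptor, was at 183 CPM in members against 70.04 in others that were not cycling in Tumor 1 and 20.6 against 9.45 in Tumor 2, and Plat, tissue plasminogen activator, at 107 against 75.0 and 92.9 against 52.8. Over the plasminogen list the medians were 0.50 and 0.80 from 5 genes each. Timp1, an inhibitor of metalloproteinases, was at 1321 against 624 and 967 against 279 CPM. Mmp9, gelatinase B, stood high in Tumor 1 (78.6 CPM against 4.71 in all others), with 85.5% of its UMIs in 5 cells, and differed by 0.35 in Tumor 2. The metalloproteinase list had medians of -0.48 and 0.05, and of 0.63 and 0.10 without cells that had fibroblast or macrophage markers.

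EGF-family ligands and outputs of the MAPK pathway were higher for some members of each list. Ereg, epiregulin, was at 62.1 CPM in members against 33.6 in others that were not cycling in Tumor 1 and 43.6 against 6.06 in Tumor 2. Hbegf was at 1101 against 850 and 149 against 71.2. Over the EGF list 2 of 8 and 3 of 7 genes were past 2-fold higher against others that were not cycling, where 2.06% and 1.05% of all genes were, with medians of 0.38 and 0.20. Fosl1, an AP-1 subunit that follows MAPK activity, was at 115 against 56.3 CPM and 14.8 against 4.64. Etv5, another target of the pathway, was lower in Tumor 1 (log2 -0.93) and higher in Tumor 2 (0.51), and Spry1, a feedback inhibitor, was lower in both (-0.86 and -0.45). The medians of the MAPK list were 0.28 and 0.33, with 4 of 15 and 2 of 14 genes past 2-fold higher against the same 2.06% and 1.05%, and 0 lower. Without cells that had fibroblast or macrophage markers 2 of 15 and 1 of 13 were higher, and 1 and 0 lower.

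Glycolysis and hypoxia genes shifted together by a small amount. Of 23 genes, 20 were higher in both tumours than in others that were not cycling, 0 were lower in both and 3 differed in sign, with medians of 0.51 and 0.69 and 1 and 3 genes past 2-fold. Of all genes 31.8% were higher in both in this comparison, and their medians were -0.01 in each. Past 2-fold higher were 2.06% of all genes in Tumor 1 and 1.05% in Tumor 2. Aldoa, aldolase, was at 1434 CPM in members against 878 in Tumor 1 and 532 against 330 in Tumor 2, and Ldha, lactate dehydrogenase, at 1832 against 1231 and 1229 against 756. Bnip3, a mitochondrial protein induced by low oxygen, was at 94.3 against 48.8 and 52.9 against 33.5, and Vegfa, the vascular growth factor, at 93.7 against 58.3 and 86.0 against 39.2. Against all other epithelial cells 21 of 23 were higher in both, where 27.6% of all genes were. Without cells that had fibroblast or macrophage markers the medians were 0.55 and 0.69.

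**Figure D4:**
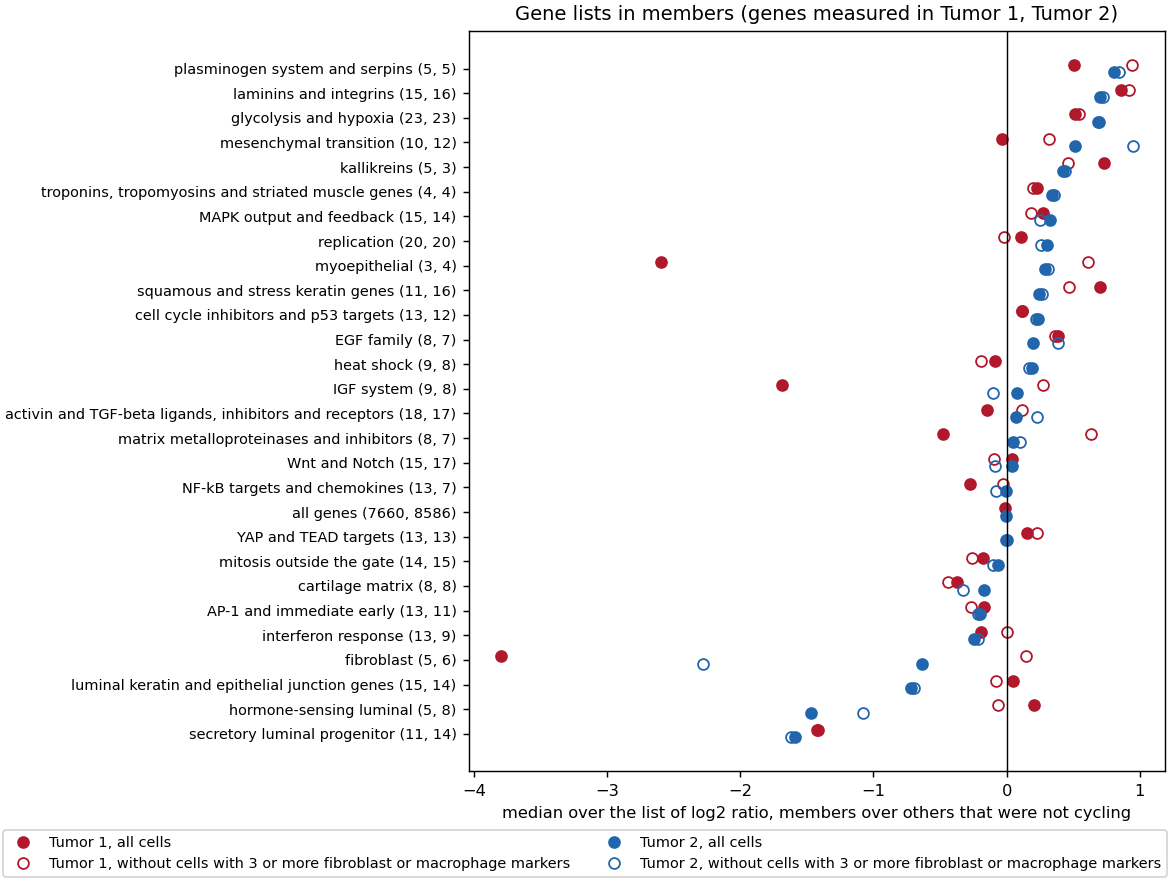
Median log2 ratio of (CPM + 1) of members over other epithelial cells that were not cycling, for each gene list, in Tumor 1 and Tumor 2, with filled points for all cells and open points after cells with 3 or more fibroblast or macrophage markers were removed. The secretory luminal progenitor list sits at -1.42 and -1.59, laminins and integrins at 0.86 and 0.70, glycolysis and hypoxia at 0.51 and 0.69, and the myoepithelial point of Tumor 1 moves from -2.59 over 3 genes to 0.61 over 2 when those cells are removed.

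Mesenchymal genes had differing signs between the tumours in part. Vim, vimentin, was at 340 CPM in members against 558 in others that were not cycling in Tumor 1 and at 416 against 236 in Tumor 2. S100a4 was at 50.3 against 50.3 and 511 against 211, and Sparc, a secreted matrix protein, was at -2.13 and 0.27 on the log2 scale. Snai1, a repressor of E-cadherin, was higher in both (0.64 and 0.55), as was Emp3 (0.67 and 0.79). The list's medians were -0.04 and 0.52, and 5 of the 10 genes measured in both had opposite signs, as did 36.6% of all genes. Without cells that had fibroblast or macrophage markers the medians were 0.32 and 0.95, and against all other epithelial cells 6 of 9 genes were higher in both tumours and 0 lower in both, where 27.6% and 39.6% of all genes were.

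Genes of DNA replication were higher in members than in all other epithelial cells, with medians of 0.37 and 0.60 over 20 genes. Against others that were not cycling the medians were 0.11 and 0.30, and -0.02 and 0.26 without cells that had fibroblast or macrophage markers. Mcm6, a subunit of the replicative helicase, differed by 0.92 and 0.77 from all others and by 0.35 and 0.11 from those not cycling, and Gins2 by 0.78 and 0.96 and by 0.09 and 0.28. Mcm2 and Mcm3 differed by 0.73 and 0.58 in Tumor 1 and by 0.78 and 0.70 in Tumor 2 from all others. Cells with replication transcripts but without mitosis transcripts pass the rule, and 146 and 99 members had 2 of the 5 mitosis genes. Cdkn1a, the p21 inhibitor, was at 521 against 288 CPM and 153 against 89.9 in members and others that were not cycling, and the list of inhibitors and p53 targets had medians of 0.12 and 0.23.

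Binding proteins of insulin-like growth factors also differed between the tumours. Igfbp5 was lower in members of both tumours than in others that were not cycling (log2 -2.76 and -1.65). Igfbp4 and Igfbp3 were lower in Tumor 1 (-2.14 and -1.69) and higher in Tumor 2 (1.30 and 0.82), and 6 of 7 genes of this list had opposite signs, as did 36.6% of all genes. In Tumor 1 the list's median went from -1.69 to 0.28 when cells with fibroblast or macrophage markers were removed. Ifit1, an interferon-induced antiviral gene, was at 126 CPM in members against 113 in Tumor 1 and 8.38 against 39.4 in Tumor 2. The interferon list had like medians in the tumours, -0.19 and -0.25. Of 13 and 9 measured genes 0 were past 2-fold higher and 0 and 2 lower. Of all genes 2.06% and 1.05% were higher and 3.82% and 1.63% lower. Of the 9 genes measured in both tumours 5 had opposite signs, 4 were lower in both and 0 higher in both. The shares of all genes were 36.6%, 31.6% and 31.8%.

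The Wnt and Notch, YAP and TEAD, AP-1, NF-kB and heat shock lists lay near the median of all genes in at least 1 of the tumours. The values in this paragraph are against others that were not cycling. The fibroblast and Schwann lists stood apart, with 5 of 5 and 2 of 2 genes measured in both tumours lower in both, as were 31.6% of all genes. Wnt and Notch genes had medians of 0.04 in each, although Wnt10a and Jag1 were higher as given, Wnt7b was higher in Tumor 1 (1.75) and near even in Tumor 2 (0.13), and Sfrp1, an inhibitor of Wnt ligands, was lower in both (-2.59 and -0.69). YAP and TEAD targets had medians of 0.15 and -0.01, with Tead4 at 1.24 and 0.33, Ankrd1 at 0.73 and -0.78 and Ctgf at -1.38 and -0.90. AP-1 and immediate early genes had medians of -0.17 and -0.20. NF-kB targets and chemokines had -0.27 and 0.00, with Il1b at -3.70 and -1.95 and Lif, a cytokine related to Clcf1, at 1.06 and 0.60. Heat shock genes had -0.09 and 0.19, with Hspa1b lower in both (-0.81 and -0.83).

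Some of the leading genes, but not all, also graded with the number of markers on either side of the limit. Over cells that were not cycling with 0, 1, 2, 3, 4, 5 and 6 markers, Hmga2 read 7.9, 12.1, 48.8, 70.2, 99.0, 133.1 and 290.5 CPM in Tumor 1. In Tumor 2 it read 10.4, 6.3, 12.6, 28.5, 76.6, 67.7 and 325.1 CPM, where the last value rests on 9 cells. Cells just outside the limit, with 2 markers, thus stood between those with none and members for Hmga2 in Tumor 1 and near the former in Tumor 2. Pthlh went from 95.7 CPM at 0 markers to 941.3 at 6 in Tumor 1, and Krt16 from 12.6 to 97.5. Ung showed no such course in Tumor 1, at 61.5 CPM at 0 markers, 47.3 at 5 and 69.6 at 6. Its levels in Tumor 2 were 58.5 CPM at 0 markers, 122 at 2, 91.7 at 5 and 148 at 6. Edn2 read 8.55 CPM at 0, 11.8 at 5 and 87.6 at 6 in Tumor 1, and Gjb2 read 5.47, 10.8 and 23.9. In Tumor 2, Edn2 read 2.60 CPM at 0 markers and 50.0 and 57.8 at 5 and 6, and Gjb2 read 13.0 at 0, 11.5 at 5 and 93.9 at 6.

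The T antigen did not follow this course in Tumor 2. It read 176 CPM at 0 markers and 245 at 6 in Tumor 1, and 53.9 at 0, 67.1 at 3, 48.3 at 4, 29.2 at 5 and 14.4 at 6 in Tumor 2, where the last value rests on 4 UMIs in 9 cells. The number of markers also goes with depth, as given above, and the part of depth in these gradients was not tested.

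**Figure D5:**
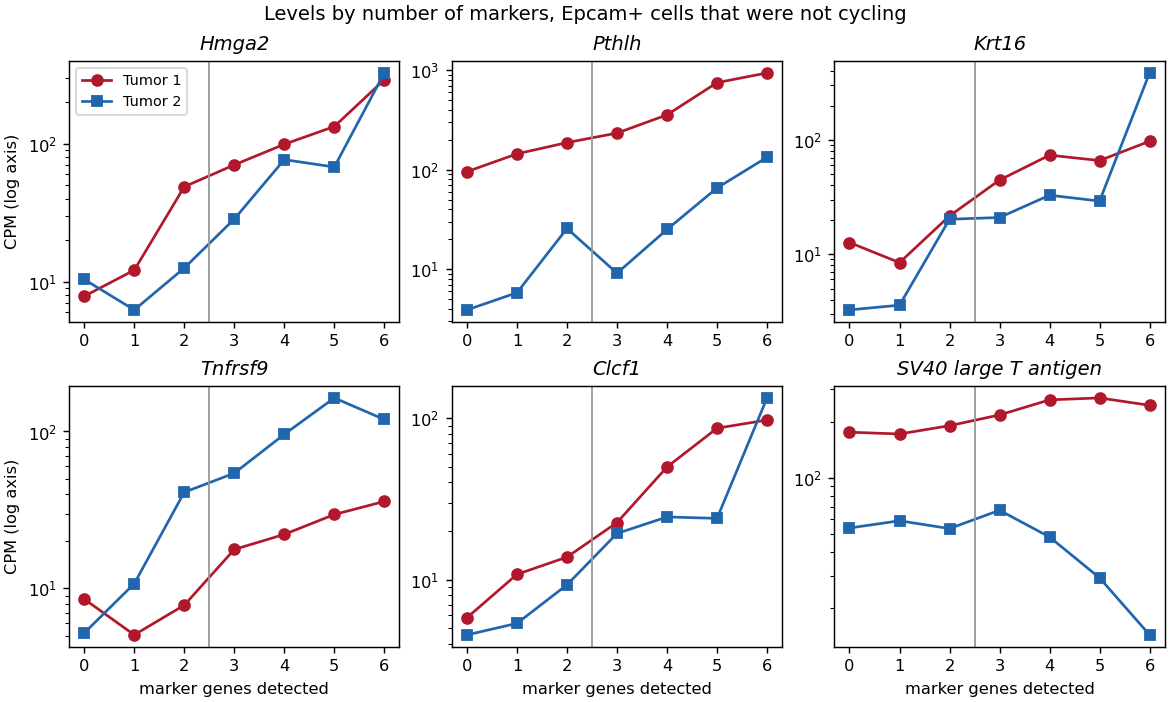
Level in CPM on a log axis against the number of the 6 marker genes with a UMI, for epithelial cells that were not cycling in Tumor 1 and Tumor 2, for Hmga2, Pthlh, Krt16, Tnfrsf9, Clcf1 and the T antigen, with members from 3 markers upwards. Hmga2 climbs from 7.9 to 290.5 CPM in Tumor 1 and from 10.4 to 325.1 in Tumor 2, whereas the T antigen in Tumor 2 goes from 53.9 to 14.4, and the last point of Tumor 2 rests on 9 cells.

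The pattern was present in cycling cells too. Among cycling epithelial cells, 1039 in Tumor 1 (47.7%) and 520 in Tumor 2 (55.4%) had 3 or more of the 6 markers, against 8.53% and 4.23% in DCIS 1 and 2. Those cells were deeper, with medians of 22484 and 28326 UMIs. Of the 32 genes higher in members than in others that were not cycling in both tumours, 32 in Tumor 1 and 32 in Tumor 2 were also higher in cycling cells with 3 or more markers than in cycling cells with fewer, as were 2784 and 3350 of all 7185 genes. At least 2-fold higher were 20 and 16 of them, and 0.807% and 0.473% of all genes. Of the 44 lower genes 44 and 41 were lower, as were 4401 and 3835 of all genes, 29 and 17 of them by 2-fold, against 0.752% and 0.264% of all genes. These cycling cells were not among those that ranked the 32 and 44 genes, but they were split by the same 6 markers, and the part of depth was not tested.

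A few genes stood out in members of 1 tumour and came from a handful of cells. In Tumor 1, Prl8a9, a placental hormone of the prolactin family, was at 455 CPM in members against 4.81 in all others, and 1746 of its 1992 UMIs lay in 1 cell. Prl6a1, of the same family, was at 87.3 against 1.01 CPM, with a UMI in 5 members. Ppbp, a platelet chemokine, was at 36.1 against 3.46 CPM and Gm26870 at 24.0 against 3.42, with 93.0% and 88.6% of their UMIs in 5 cells. In Tumor 2, Itm2a was at 84.7 against 8.31 CPM with 355 of 394 UMIs in 1 cell, BC100530 at 56.7 against 3.30 with 93.9% in 5 cells, and Adra2a, an adrenergic receptor, at 26.9 against 4.26 with 80.8%. Slurp1, a secreted protein of skin, was less concentrated, with 38.5% of UMIs in 5 cells, at 23.4 against 7.62 CPM.

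The 19 members of DCIS 1 had no part in ranking the genes and can be set beside the tumours as values, with no test. The markers of the rule are set by the rule in these cells too: Nppb was at 82.5 CPM against 2.51 in other epithelial cells of DCIS 1 that were not cycling, and Acan at 11.8 against 0.46, found in 2 cells. Of the 25 genes that led the tumours against others that were not cycling, 17 were higher in the DCIS 1 members than in others that were not cycling, with a median log2 of 0.69, and of the 25 that were lowest, 23 were lower, with a median of -1.85. Of all genes outside the rule 56.0% were higher and 44.0% lower in these members, with a median of 0.09. Of the 15 genes that led against all other cells, 10 were higher than in all others of DCIS 1 and 5 lower, with a median of 0.14, and 6 were higher than in others that were not cycling and 9 lower, with a median of -0.14. Cells with 3 or more fibroblast or macrophage markers were 12.2% of the others that were not cycling and 0 of the 19 members, and their part in the lower genes was not tested. Klk6 was at 589 against 88.0 CPM and Crabp2 at 299 against 117. Krt16 was at 98.2 against 12.9, from 25 UMIs in 3 cells. Upp1 was at 3.93 against 20.6 CPM, from 1 UMI.

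Between all epithelial cells of the 6 libraries, the genes that led the members divided in how they followed the state. Hmga2 was at 4.12 and 5.79 CPM in Prepuberty, 2.54 and 2.17 in DCIS, and 67.5 and 36.8 in Tumor. Krt16 was at 2.73 and 2.61 CPM in Prepuberty, 17.6 and 13.4 in DCIS, and 24.1 and 22.1 in Tumor, so for Krt16 both DCIS libraries lay above both Prepuberty libraries and below both Tumor libraries. Inhba read 15.996 and 17.7, 52.4 and 18.0, and 276 and 166 CPM, and Nppb 0.485 and 0.290, 6.12 and 3.01, and 67.4 and 7.49. For Nppb, Tumor 2 lay nearer to DCIS 1 than to Tumor 1.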

How the data were processed

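Raw UMI counts of 31055 features per cell were deposited as filtered 10x matrices, 1 for each of 6 libraries, made by the authors with Cell Ranger 3.0.2 on mm10 with the T antigen added as a gene, per the labels and the study's methods. The members and the gene lists were chosen with earlier results of these data known. UMIs were summed over members and over other epithelial cells in each library with at least 20 members (both Tumor libraries), scaled to CPM, and compared as the ratio of (CPM + 1) over genes with a mean of at least 10 CPM, with 2 and 0.5 as the limits. Other cells that were not cycling had at most 2 of the 5 mitosis genes. A test of members across states needs 2 libraries with 20 members in each, which Tumor alone had, so those values stand side by side. Shares were compared by an exact permutation test over libraries. Thinning drew 3000 UMIs per cell. Doublets were scored with Scrublet, in scanpy 1.11.5, on cells under 20% mitochondrial UMIs, with the top 0.8% per 1000 barcodes taken as top-scored. Its own threshold marked 31 cells in all, so doublets were kept, and leaving out the top-scored was an alternative. Named genes were those of the rule, the 15 highest and 10 lowest by the value nearest to 0 over both Tumor libraries, 5 more per library, up to 4 per list (39 lists) furthest from 0 in Tumor 1 with those of differing direction (given by count where there were many), and Mki67, Cdkn2a and the T antigen. A few genes that this rule takes are not reported here. Other genes named from the lists were chosen after their values were seen. Gene positions are from GENCODE for GRCm38. The scripts were tested on simulated data. Python 3.11.15, numpy 2.4.6, scipy 1.17.1 and pandas 2.3.3 were used.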

Additional observations from a re-analysis of the deposited data

Results flagged for a closer look

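Cells with neither Epcam nor Ptprc lay outside the comparisons, and some of them had 3 or more of the 6 markers. They were 14 of 563 such cells in Tumor 1 (2.49%) and 114 of 580 in Tumor 2 (19.7%), against 0 of 3279 and 0 of 3228 in Prepuberty and 1 each of 1278 (0.0782%) and 2216 (0.0451%) in DCIS. They were looked at because the markers were present outside the Epcam-positive cells, above the level in the earlier states. The T antigen was at 160 and 54.0 CPM in them, with a UMI in 57.1% and 56.1%, and their median depth was 13306 and 22020 UMIs. Krt8 was at 315 and 135 CPM against 1678 and 350 in members, and Cdh1 at 5.34 and 0.360 against 82.5 and 164. Vim was at 2126 and 989 CPM against 340 and 416 in members, and S100a4, a calcium-binding protein of motile cells, at 64.1 and 1191 against 50.3 and 511. Hmga2 was at 96.2 and 141 CPM and Cdkn2a at 1678 and 1767. Of these cells 7.14% and 29.8% had 3 or more fibroblast markers, against 3.03% and 6.38% of members and 24.6% and 39.5% of cells with neither Epcam nor Ptprc and fewer than 3 markers, and 6 and 57 were not cycling. The part of fibroblast RNA in these values was not tested. Among Ptprc-positive cells 0 of 240 in Tumor 1 and 4 of 234 in Tumor 2 (1.71%) had 3 or more markers.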

How the results depend on the processing

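The excess of members in Tumor over both other states, and of DCIS over Prepuberty, kept its sign in 42 of 42 values, from 3 comparisons that each left out 1 of 4 libraries in turn or used 1 of 10 other settings. The replicate block given below is among these settings and returns the same difference by construction, so its sign could not change. Leaving out 1 library at a time, Tumor exceeded DCIS by 7.71 to 12.8 points and Prepuberty by 8.18 to 13.3, and DCIS exceeded Prepuberty by 0.04565 to 0.906, the lowest without DCIS 1. Other settings gave 5.44 points with thinned cells to 37.9 with no limit on mitosis genes for Tumor over DCIS, 5.55 to 40.1 for Tumor over Prepuberty, and 0.0869 to 2.17 for DCIS over Prepuberty. With the replicate number as a replicate block, the differences were 10.3, 10.7 and 0.476 points (exact sign-flip p = 0.5, 0.5 and 1, where 0.5 is the smallest that 2 pairs allow), but the labels do not say that the numbers pair samples, and the numbers were not used otherwise. No test of expression over states could be run with or without such a block, nor its alternatives, because only the Tumor libraries had 20 members, and with 10 members DCIS 1 alone would join.

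Counts of genes past 2-fold moved with the choices more than directions did. Those higher in Tumor 1, Tumor 2 and both (64, 30 and 10 as reported) were 40, 19 and 5 with 5 CPM added, 141, 71 and 20 with no limit on low counts, and 38, 16 and 5 with a mean of 30 CPM. They were 119, 65 and 31 with 4 or more markers required, 158, 90 and 37 against others that were not cycling, 280, 304 and 99 against those of them with no marker, and 155, 111 and 47 with stromal-marker cells removed. With the mean over cells, Tumor 2 had 52 and both had 18, and with T-antigen-positive cells alone both had 0. Genes lower in Tumor 1, Tumor 2 and both (150, 155 and 84 as reported) were 392, 353 and 136 with no limit on low counts and 62, 87 and 38 with a mean of 30 CPM. Against others that were not cycling Tumor 1 had 293 and both had 44, against those with no marker Tumor 1 had 391 and Tumor 2 had 368, and with stromal-marker cells removed both had 32. The comparisons with cells that had no marker or with stromal-marker cells removed, and the share without a limit on mitosis genes, were added after the data were seen.

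Of 902 values for the single genes followed under the alternatives, 871 kept their sign and 17 reversed, and for the 15 leading higher genes 329 of 330 kept it. These counts include settings under which a sign could not change. They are 5 CPM added, no limit on low counts and a mean of 30 CPM, and they say nothing about direction. Reversals in mitosis genes came when cycling cells left the comparison, as the limit on mitosis genes then applies to both sides. Against others that were not cycling, Aurka read 0.011 in Tumor 1 and 0.027 in Tumor 2, Plk1 0.085 in Tumor 2, Hist1h2ak 0.55 in Tumor 2, Hist1h2ap 0.090 and 0.063, and Mki67 0.038 in Tumor 2. Against those with no marker, Aurka read 0.11 in Tumor 1, and in Tumor 2 Cenpa read 0.15, Hist1h2ak 0.58, Hist1h2ap 0.56 and Mki67 0.15. With stromal-marker cells removed, Hist1h2ak read 0.078 in Tumor 2 and Hist1h2ap 0.019 in Tumor 1. Prl6a1 read -0.29 in Tumor 1 with T-antigen-positive cells alone, and Itm2a in Tumor 2 read -0.91 with 4 or more markers and -1.03 with stromal-marker cells removed, both genes whose UMIs lay in few cells. Depth limits which cells can be members at all, and Nppb in Tumor 2, with a UMI in 3.83% of thinned members, is too sparse to be graded.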

Other observations

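Aldh1a3, Ankrd1 and Krt80, genes of another set of epithelial cells, were looked for in members. All 3 had a UMI in 8 members of Tumor 1 (2.69%) and 7 of Tumor 2 (2.98%), against 0.373% and 2.44% of other epithelial cells that were not cycling and 1.69% and 4.43% of all other epithelial cells, so members of Tumor 2 lay between the last 2. In DCIS 1, 6 of 19 members (31.6%) had all 3, against 2.30% of other cells that were not cycling and 6.41% of all others. Of all other epithelial cells, 8.18% and 5.30% in Prepuberty and 7.34% in DCIS 2 had all 3, so these genes are not particular to tumours. Members were deeper than cells that were not cycling, and the part of depth was not tested.

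By chromosome, the median log2 ratio of members over other epithelial cells that were not cycling lay between -0.10 and 0.09 in Tumor 1 and between -0.14 and 0.11 in Tumor 2. Against the epithelial cells of Prepuberty, members of Tumor 2 stood lowest on chromosome 7 (-0.56) and chromosome 2 (-0.53) and highest on chromosome 3 (0.55), and the other epithelial cells of Tumor 2 had -0.49 on chromosome 7 and 0.50 on chromosome 3. In Tumor 1 the members' medians ran from -0.37 on chromosome 10 to 0.21 on chromosome 13. Klk8, Klk7 and Klk6 lie on chromosome 7, and their levels are given above.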
